A study of Mus musculus with 69 samples.

Results

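Potassium channel subunit genes were followed in the lungs of mice that had received nanoscale titanium dioxide. The members were all genes whose RefSeq symbol is Kcn, then letters, then a number. Of 92 such symbols in RefSeq, 84 had at least 1 of the 113 matching probes on the array, out of 18656 genes tested in all, and Kcna7, Kcna10, Kcng1, Kcnj13, Kcnk9, Kcnk15, Kcnk16 and Kcnk18 had none. The animals were female C57BL/6 mice, 5 to 7 weeks old when obtained and kept for 1 to 3 weeks before exposure. Each was given a single intratracheal instillation of 18, 54 or 162 µg of the titanium dioxide NRCWE-025 or NRCWE-030, or of the vehicle alone, and the lung was taken 1 or 28 days later. These choices made 14 groups on 69 arrays, with 5 arrays in each group except NRCWE-025 162 µg day 28, which had 4. The vehicle group of a day served both materials, so comparisons of the 2 materials with vehicle on one day shared their controls. On each array the RNA of 1 mouse's lung carried the dye Cy5 and a commercial reference RNA pooled from mouse cells carried Cy3. All values below are log2 lung over reference, so that 1 unit is a 2-fold difference, and no array had the dyes the other way round.

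Potassium channels let potassium ions leave or enter a cell along their gradient and so set the resting membrane voltage, bring an excited membrane back to rest and drive the secretion of salt and water across epithelia. Pore subunits fall into voltage-gated channels (Kcna, Kcnb, Kcnc, Kcnd, Kcnf, Kcng, Kcnh, Kcnq, Kcns and Kcnv), inward rectifiers (Kcnj), two-pore channels that carry background currents (Kcnk) and channels opened by calcium or sodium inside the cell (Kcnma, Kcnn, Kcnt and Kcnu). Accessory subunits (Kcnab, Kcne, Kcnip and Kcnmb) form no pore but change how the pore subunits open and where they go. In the lung such channels are known from the smooth muscle of the pulmonary arteries, where they hold the tone of the vessel, from the airway epithelium, where they drive fluid secretion, and from macrophages and lymphocytes, where potassium efflux takes part in inflammatory signalling.

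The scanner software called 49.1% to 72.8% of an array's spots well above background in Cy5 (median 62.1%) and none saturated. Lung markers were in place. The surfactant gene Sftpc had a mean of 7.27 in the 10 vehicle arrays, Scgb1a1 of the airway 6.78 and the endothelial gene Cldn5 6.58. Markers of heart muscle were present too, and unevenly. The mean of 10 cardiac muscle genes ran from 0.51 to 4.47 over the 5 vehicle arrays of day 1, where replicate 2 held the highest value, and that array was also highest for 5 fat genes, at 3.92 against 1.39 to 1.88 in the others. In vehicle of day 28 replicate 4 was highest for both lists, at 3.21 for cardiac muscle and 3.89 for fat. Dose groups were uneven too, with a cardiac muscle mean of up to 4.26 on an array of NRCWE-025 54 µg day 28. One array stood apart in another way. For 68 of the 69 arrays the scanner values, each gene taken relative to its mean, matched their own column of the deposited ratio table best, with correlations of at least 0.943. For NRCWE-030 18 µg day 28 replicate 5 that correlation was 0.231, and a column of another sample came closer, at 0.542. Its scanner values and its deposited column therefore differ, and which of them carries the labelled sample cannot be told. It was kept as labelled, and results that rest on it are given with and without it. The tissue was a piece of whole lung, so that fewer cells of a type and less RNA per cell cannot be told apart.

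Of the 84 genes, 35 were well above background in Cy5 on at least 35 of the 69 arrays, and these are called measured genes here. They made up 41.67% of the potassium channel genes, where 73.44% of all tested genes (13701) passed the same limit. The other 49, called dim, were seen on fewer arrays, and 9 of them on none, among them Kcnh7, Kcnj3, Kcnj14, Kcnma1, Kcnq3, Kcns2, Kcnv1 and Kcnv2. At the other end, 20 genes were well above background on all 69 arrays. Kcnh4 and Kcnf1 lay just inside the limit with 36 and 35 arrays, and Kcnk2 and Kcng2 just outside with 30 and 28. For a dim gene no fold change is given.

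The families differed in how many genes could be measured. Two-pore channels had the largest share, with 7 of 10 measured and 5 of them on every array, and accessory subunits followed with 9 of 15. Voltage-gated pore subunits, the largest family, had 13 of 37 measured and 6 never seen. Calcium- and sodium-activated channels had 3 of 8, and inward rectifiers 3 of 14. Accessory subunits were in some cases measured where their best known pore partners were not. Kcnmb4 and Kcnmb2, regulators of the large calcium-activated channel, were well above background on all 69 arrays, whereas the probe of its pore gene Kcnma1 was on none. Kcnip3 and Kcnip4, calcium-binding partners of the Kcnd pores, were seen on 64 and 66 arrays, and Kcnd1, Kcnd2 and Kcnd3 on 2, 18 and 20. Kcnq1 and its partners Kcne2 and Kcne3 were all seen on every array, and the partner Kcne1 on 19. A probe that is not above background gives only an upper bound, and probes of different genes are not compared in brightness here.

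**Figure D1:**
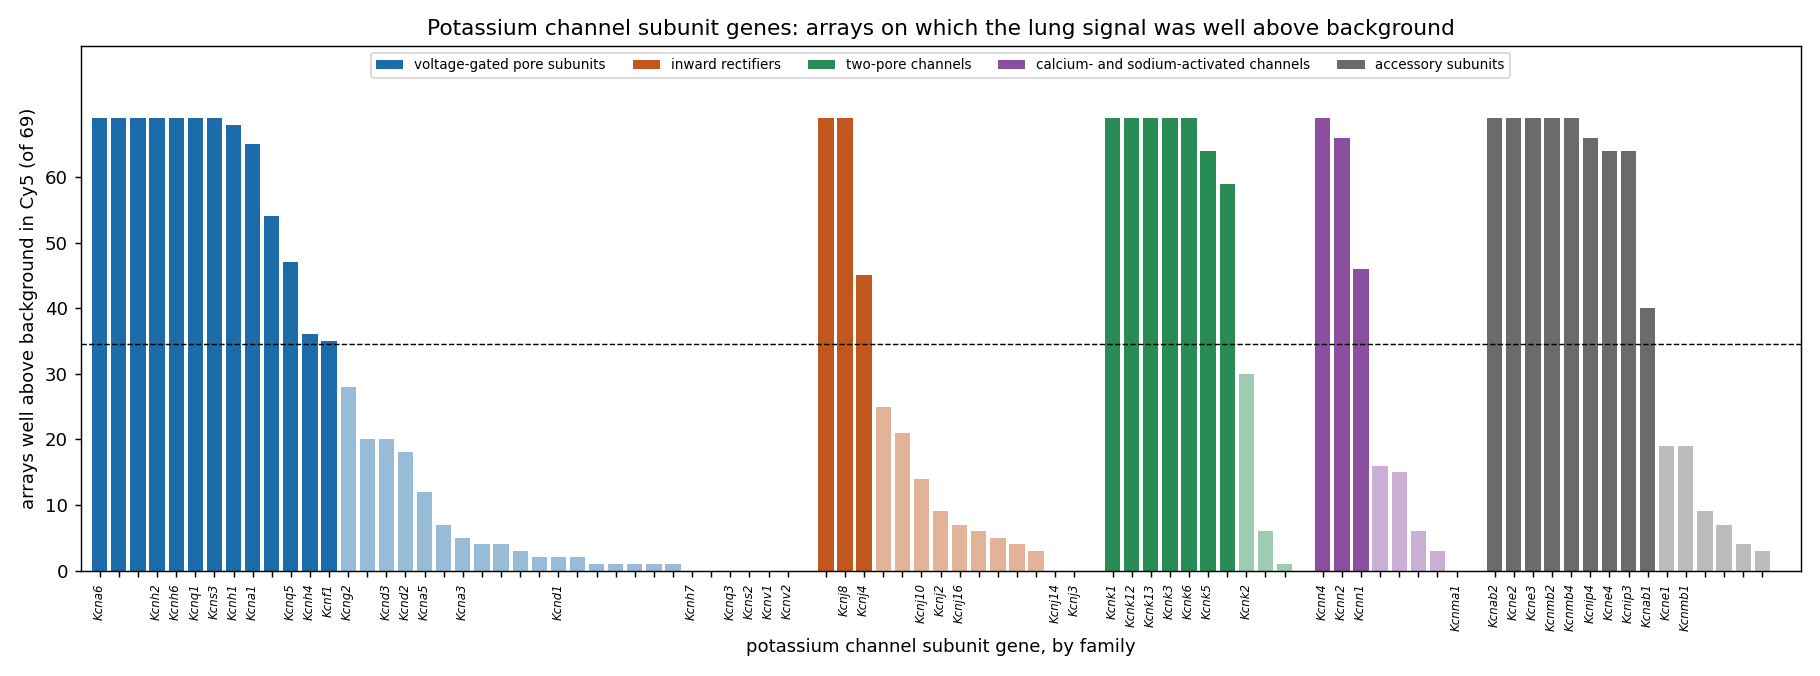
Number of arrays of 69 (vertical axis) on which each of the 84 potassium channel subunit genes (horizontal axis, coloured by family) had a probe well above background in Cy5, with a dashed line between 34 and 35 arrays. The bars of 35 genes, in full colour, pass the line, 20 of them at 69, and 9 genes have no bar. Genes named in the text are labelled.

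In lungs that had received vehicle (10 arrays, both days), 25 measured genes had a mean above the reference and 10 below it. That is 71.4% above, where 50.6% of all 13701 measured genes were. A gene counts as measured by its lung signal, which favours genes above the reference, so nothing is read from these shares. For 23 of the 35 every vehicle array lay above 0, for 6 every array lay below, and for 6 the arrays lay on both sides. Kcne2, an accessory subunit that partners Kcnq1 and other pores, stood highest above the reference at 4.77 ± 0.28 (SD, n = 10), with arrays from 4.26 to 5.10. By the median of a gene's probes the next was Kcnq1, the pore of a channel that many epithelia use for potassium recycling. It was at 3.20 ± 0.16 (SD, n = 10), with arrays from 2.99 to 3.46. Both lay above the reference in every vehicle lung.

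Kcnj8, the pore of the ATP-sensitive channel of vascular smooth muscle and pericytes, was at 2.80 ± 0.20 (SD, n = 10). Its 2 probes, each well above background on all 69 arrays, had means of 4.47 and 1.14. The gene value lies between them, and so does that of Kcnq1, so the order of these 2 genes depends on the probe. Kcns3, a silent subunit that joins other voltage-gated pores, was at 2.60 ± 0.22 (SD, n = 10). The two-pore channels Kcnk1, Kcnk6 and Kcnk3 were at 2.10 ± 0.34, 2.03 ± 0.27 and 1.95 ± 0.24 (SD, n = 10 each). The 2 measured probes of Kcnk3 had means of 1.38 and 2.52. All 5 gene values lay above the reference on every vehicle array. Kcnk6 carries potassium out of macrophages, and Kcnk3 is the acid-sensitive background channel of pulmonary artery muscle. Of the 13 measured voltage-gated pores 12 had a mean above the reference, and the exception was Kcnh2, the channel that repolarises the heart, at -0.51 ± 0.29 (SD, n = 10).

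The 5 genes lowest against the reference were calcium-activated channels, partners of Kcna pores and an inward rectifier, each below 0 on every vehicle array. Kcnn4, the calcium-activated channel of lymphocytes and macrophages, was at -1.83 ± 0.33 and Kcnab2, a cytoplasmic partner of Kcna pores, at -1.51 ± 0.21 (SD, n = 10 each). Kcnj4, an inward rectifier, was at -0.92 ± 0.19, Kcnab1, a further Kcna partner, at -0.91 ± 0.17, and Kcnn1, a small-conductance calcium-activated channel, at -0.72 ± 0.23 (SD, n = 10 each). The values of Kcnj4 and Kcnab1 each take in a probe that was not measured. Their measured probes alone had means of -1.58 and -1.60, and the others -0.25 and -0.21. These levels are relative to a reference made of other cells, and say nothing about how much of one gene there was compared with another.

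**Figure D2:**
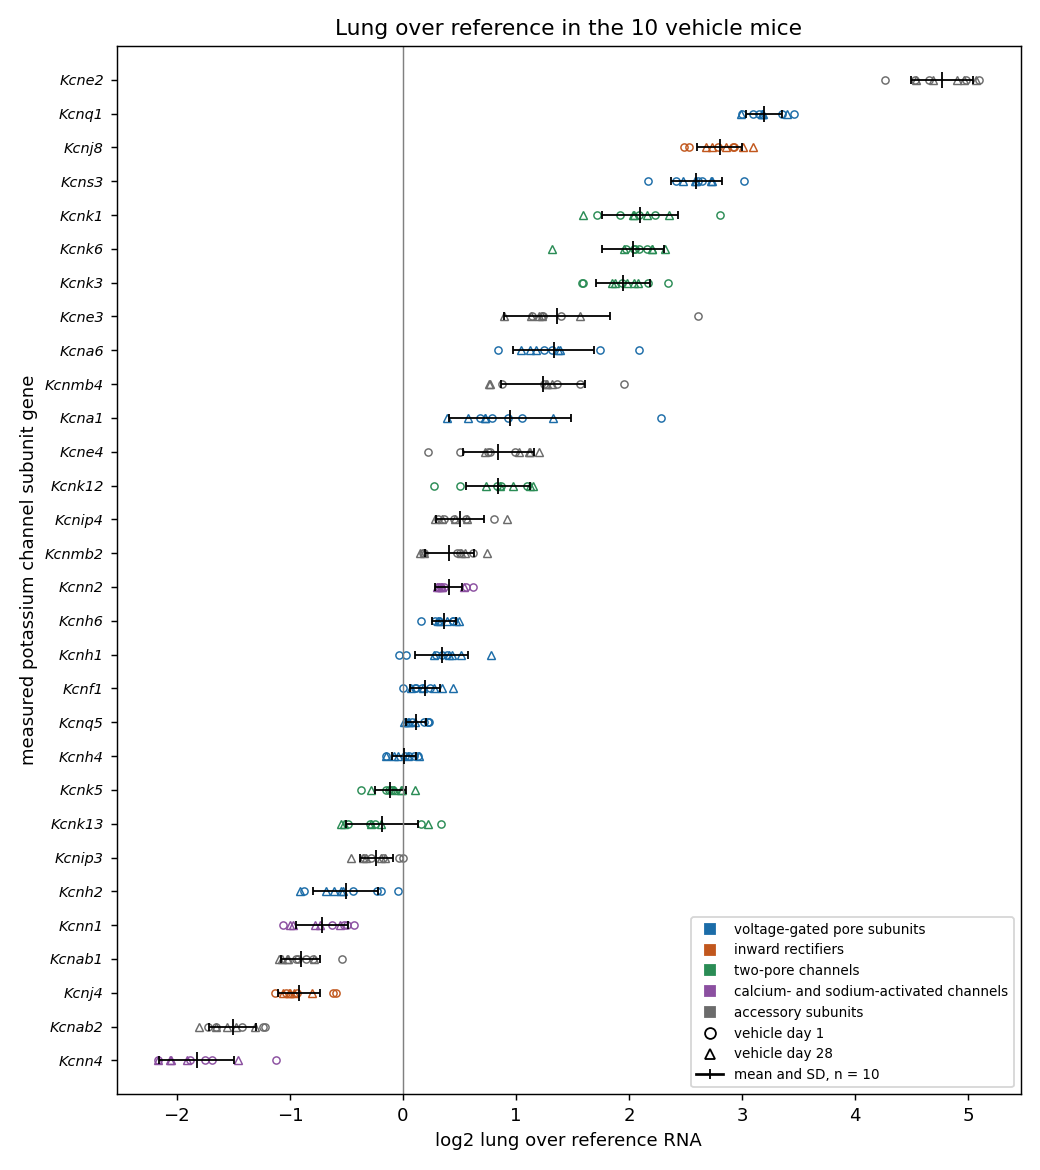
Log2 lung over reference (horizontal axis) of the 30 measured genes named in the text in the 10 vehicle arrays, one point per array, with circles for day 1, triangles for day 28, colours for families and a bar for the mean and SD. Genes are ordered by their mean. Kcne2 and Kcnq1 lie at the top with all points above 2.9, and Kcnn4 and Kcnab2 at the bottom with all points below -1.

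Over the 14 groups the range of a measured gene's group means ran from 0.14 to 0.79, with a median of 0.45, and the median SD within a group was 0.19. Over all 13701 measured genes of the array these medians were 0.36 and 0.18. Separate limma fits for each material and day then asked whether any dose differed from vehicle, with p-values adjusted by the Benjamini-Hochberg method over all 18656 genes and called below 0.05. No potassium channel gene was called in the 4 tests of any dose effect or in the 12 comparisons of a single dose with vehicle, and an ordinary test without limma's shared spread called none either. The material, day and vehicle comparisons below brought the number of specific comparisons without a call to 21. Below, background means the share of all genes called after adjustment, and is no measure for counts with an unadjusted p under 0.05. Over the 21 comparisons 1.19% to 14.3% of potassium channel genes had such a limma p, and 5.12% to 12.9% of all genes.

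On day 1 after NRCWE-025, 0 of 84 genes were called for a dose effect (limma), where 0.0214% of all genes were, and 10 had an unadjusted p under 0.05. None was called at 18 µg (1 unadjusted; background 0%), at 54 µg (2 unadjusted; background 0%) or at 162 µg (12 unadjusted; background 0.209%). At 162 µg the measured genes that came closest all had lower means than vehicle. A total of 7 had an unadjusted p under 0.05 and a lower mean, none a higher one, and 21 of 35 had a lower mean in all. Their median difference was -0.090, against -0.0081 for all measured genes of the array. The share of potassium channel genes with an unadjusted p under 0.05 was 14.3%, and that of all genes 12.3%. For the dose effect these shares were 11.9% and 9.98%, at 18 µg 1.19% and 5.12%, and at 54 µg 2.38% and 6.53%.

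Kcne2 came closest to a call. Its 5 arrays at 162 µg of NRCWE-025 on day 1 read 4.28, 4.44, 4.41, 3.70 and 3.71, and the vehicle arrays 4.26, 4.53, 4.98, 5.10 and 4.66. The 162 µg arrays were low as a group but overlapped vehicle through its first replicate. The difference was -0.60 (SE 0.16, limma adjusted p = 0.121), it was -0.40 (SE 0.16, adjusted p = 0.692) at 54 µg, and the dose test gave an adjusted p of 0.177. Kcne2 was also lower at 162 µg of NRCWE-030 on day 1, by -0.55 (SE 0.24, adjusted p = 0.323), against the same vehicle arrays. Its pore partner Kcnq1 had means of 3.24 and 3.27 in those 2 dose groups and 3.21 in vehicle, a gap within 1 SD of the vehicle arrays (0.19).

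Kcnk6, the macrophage efflux channel, differed from vehicle by -0.41 (SE 0.13, adjusted p = 0.166) at 162 µg of NRCWE-025 on day 1, and Kcnj8 by -0.32 (SE 0.12, adjusted p = 0.261). Kcnn2, a small-conductance calcium-activated channel, differed by -0.20 (SE 0.085, adjusted p = 0.35), and its measured probe alone by -0.24. None of these passed. Kcnn1 had a higher mean, by 0.18, without an unadjusted p under 0.05 at that dose, and its dose test had an adjusted p of 0.429. Kcns3 was uneven over the doses. It read 2.82, 2.80, 3.20, 3.16 and 3.09 at 18 µg and 2.41, 2.65, 2.61, 3.02 and 2.17 in vehicle, a difference of 0.44 (SE 0.17, adjusted p = 0.971), whereas at 162 µg its group mean of 2.23 was below that of vehicle (2.57).

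A single vehicle array weighed on 2 further genes. Kcna1, a voltage-gated pore of nerve fibres, read 0.56, 0.57, 0.51, 0.56 and 0.30 at 162 µg of NRCWE-025 on day 1 and 0.93, 2.29, 0.79, 0.68 and 1.05 in vehicle. Every treated array lay below every vehicle array, and the difference was -0.65 (SE 0.23, adjusted p = 0.24). Kcne3, the Kcnq1 partner of airway and gut epithelium, differed by -0.66 (SE 0.22, adjusted p = 0.198) with all 5 treated arrays below the vehicle arrays. Without vehicle replicate 2 the difference of Kcna1 became -0.37 and that of Kcne3 -0.38. In that array Kcne3 read 2.61 against 1.14 to 1.40 in the others. It was the same array that was highest for cardiac muscle and fat markers. At 162 µg of NRCWE-025 on day 1 the 10 cardiac muscle genes, 9 of them measured, had a median difference from vehicle of -1.28, with all 10 lower and array means from 0.31 to 0.91, and the 5 fat genes, of which Ucp1 was near background, a median of -0.99. The 3 airway genes all had lower means too, with a median of -0.38, as had the 5 alveolar type 2 genes, with a median of -0.21. No gene of these 4 lists was called there, and their part in the values of Kcna1, Kcne2 and Kcne3 was not tested.

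After NRCWE-030 on day 1, 0 of 84 genes were called for a dose effect (limma; 4 unadjusted; 0.954% of all genes called). The same held at 18 µg (0 called, 2 unadjusted; background 0.00536%), at 54 µg (0 called, 3 unadjusted; background 0.0804%) and at 162 µg (0 called, 8 unadjusted; background 1.69%). Unadjusted shares of the 84 genes were 4.76% for the dose effect and 2.38%, 3.57% and 9.52% at 18, 54 and 162 µg. Those of all genes were 11.2%, 7.3%, 8.76% and 12.9%. At 162 µg, where the array as a whole had most calls of any dose comparison, 13 measured genes had a higher and 22 a lower mean than vehicle, with a median of -0.031 against 0.0024 for all measured genes. Only 5 measured genes had an unadjusted p under 0.05, 2 of them higher and 3 lower.

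The higher ones were Kcnk13 and Kcne4. Kcnk13, a two-pore channel of macrophages and microglia, had a mean of 0.53 at 162 µg of NRCWE-030 and -0.11 in vehicle, a difference of 0.64 (SE 0.26, adjusted p = 0.278) with 3 of 5 arrays above all vehicle arrays. Kcne4, an accessory subunit that inhibits several voltage-gated pores, had means of 1.22 and 0.65, a difference of 0.58 (SE 0.21, adjusted p = 0.188). The lower ones were Kcne2, Kcna1 and Kcnip4. Kcna1 differed by -0.74 (SE 0.26, adjusted p = 0.188) and by -0.46 without vehicle replicate 2, and its 5 arrays at 162 µg spread from -0.083 to 1.00.

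Kcnip4 gave 0.10, 0.16, 0.16, 0.36 and 0.24 at 162 µg of NRCWE-030 on day 1 and 0.36, 0.45, 0.81, 0.56 and 0.31 in vehicle, so that 4 of 5 treated arrays lay below all vehicle arrays. The difference was -0.29 (SE 0.10, adjusted p = 0.184). The gene value is the median of 2 probes for the same transcript, of which 1 was never above background. The probe that was measured had 0.42 ± 0.16 at 162 µg against 0.96 ± 0.31 in vehicle (SD, n = 5 each), while the other was near 0 throughout, and the 2 probes had a correlation of -0.0165 over the 69 arrays.

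Marker lists were read on day 1 at 162 µg of NRCWE-030. Of 5 neutrophil genes, Csf3r was called higher and the median difference was 0.30. Of 5 fat genes, 1 was called lower and the median was -0.68. The 3 airway genes tested had a median of -0.53 and the 3 macrophage genes tested 0.40, with no call. Their part in the values of the channel genes was not tested.

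On day 28 after NRCWE-025, 0 of 84 genes were called for a dose effect (limma; 4 unadjusted; background 0.0268%). At 18 µg 0 were called (5 unadjusted; background 0.059%), at 54 µg 0 (5 unadjusted; background 0.0268%) and at 162 µg 0 (2 unadjusted; background 0.0161%). Unadjusted shares of the 84 genes were 4.76% for the dose effect and 5.95%, 5.95% and 2.38% at 18, 54 and 162 µg. Those of all genes were 5.77%, 8.89%, 7.07% and 7.24%. Measured genes were about even at 162 µg, with 18 higher and 17 lower and a median difference of 0.00086 against -0.0075 for all measured genes. Kcne2 had lower means than vehicle (4.83) here too, by -0.45 (SE 0.16, adjusted p = 0.407) at 18 µg and -0.38 (SE 0.16, adjusted p = 0.675) at 54 µg. Kcnh2 differed by 0.25 and 0.27 at these doses (adjusted p = 0.54 and 0.673).

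On day 28 after NRCWE-030, 0 of 84 genes were called for a dose effect (limma; 6 unadjusted; background 0.102%). At 18 µg 0 were called (5 unadjusted; background 0.118%), at 54 µg 0 (4 unadjusted; background 0.0536%) and at 162 µg 0 (5 unadjusted; background 0.0965%). Unadjusted shares of the 84 genes were 7.14% for the dose effect and 5.95%, 4.76% and 5.95% at 18, 54 and 162 µg. Those of all genes were 7.06%, 9.03%, 6.52% and 7.51%. At 162 µg 22 measured genes had a higher and 13 a lower mean than vehicle, with a median of 0.038 against -0.0016 for all measured genes, and the 3 measured genes with an unadjusted p under 0.05 were all higher voltage-gated pores. Without NRCWE-030 18 µg day 28 replicate 5 there was still no call, with 10 genes unadjusted at 18 µg, and the backgrounds became 0.3% for the dose effect and 0.375%, 0.177% and 0.204% at 18, 54 and 162 µg.

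These were Kcns3, Kcna6 and Kcnq1. Kcns3 read 3.30, 2.96, 2.98, 3.10 and 2.78 at 162 µg and 2.59, 2.73, 2.58, 2.48 and 2.73 in vehicle. The groups did not overlap, and the difference was 0.40 (SE 0.11, adjusted p = 0.237). Kcna6, a voltage-gated pore known from nerve cells, read 1.82, 1.86, 2.00, 2.50 and 1.70 at 162 µg and 1.18, 1.04, 1.12, 1.39 and 1.37 in vehicle. These groups did not overlap either. Its difference from vehicle was 0.36 at 18 µg, 0.58 at 54 µg and 0.76 (SE 0.21, adjusted p = 0.26) at 162 µg, and Kcnq1 differed by 0.26 (SE 0.091, adjusted p = 0.472) at the highest dose.

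At 18 µg of NRCWE-030 on day 28 no potassium channel gene was called either. Kcnk3 differed from vehicle by -0.27 (SE 0.093, adjusted p = 0.316) there, with all 5 arrays below the vehicle arrays, and by -0.29 (SE 0.099, adjusted p = 0.248) without replicate 5. At 162 µg its 2 probes, both measured, differed by -0.044 and 0.0098. At 18 µg the 6 smooth muscle genes all had lower means than vehicle, with a median of -0.42 and 4 unadjusted p under 0.05. So had the 10 cardiac muscle genes, with a median of -1.52 and 6. Without replicate 5 these medians were -0.35 and -1.51, with 2 and 3. Array means of the smooth muscle genes ran from 0.63 to 1.19 there and from 1.13 to 1.56 in vehicle. At 162 µg of both materials on day 28 the 5 neutrophil genes all had lower means, with medians of -0.55 for NRCWE-025 and -0.65 for NRCWE-030. The array means of these genes had a median of 3.62 in vehicle of day 28, the highest of the 14 groups. That median was 3.06 and 2.93 in these 2 dose groups and 3.01 in vehicle of day 1. The 3 macrophage genes had median differences of 0.19 and 0.43. None of these marker genes was called, and their part in the channel values was not tested.

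The means of 2 accessory subunits lay mostly on one side of vehicle within a day, without a call. Kcne2 had a lower mean than vehicle in 11 of them, from -0.60 to -0.074, and a higher one, by 0.061, at NRCWE-025 18 µg day 1. Kcnmb4, the regulator of the large calcium-activated channel, had lower means than vehicle at the 6 doses of day 1, from -0.43 to -0.10, and higher ones at the 6 doses of day 28, from 0.22 to 0.38. Each set of 6 shares its 5 vehicle arrays, so these are not 6 separate observations, and no difference of Kcnmb4 from vehicle had an unadjusted p under 0.05. Without replicate 5 of NRCWE-030 18 µg day 28, however, its difference there became 0.55 (SE 0.18, limma unadjusted p = 0.00524, adjusted p = 0.211), and that of Kcne2 -0.032. The vehicle arrays of Kcnmb4 read 1.96, 0.87, 1.57, 1.36 and 1.24 on day 1 and 1.26, 0.76, 1.27, 1.32 and 0.77 on day 28, a difference of -0.32 (SE 0.24, adjusted p = 0.742).

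**Figure D3:**
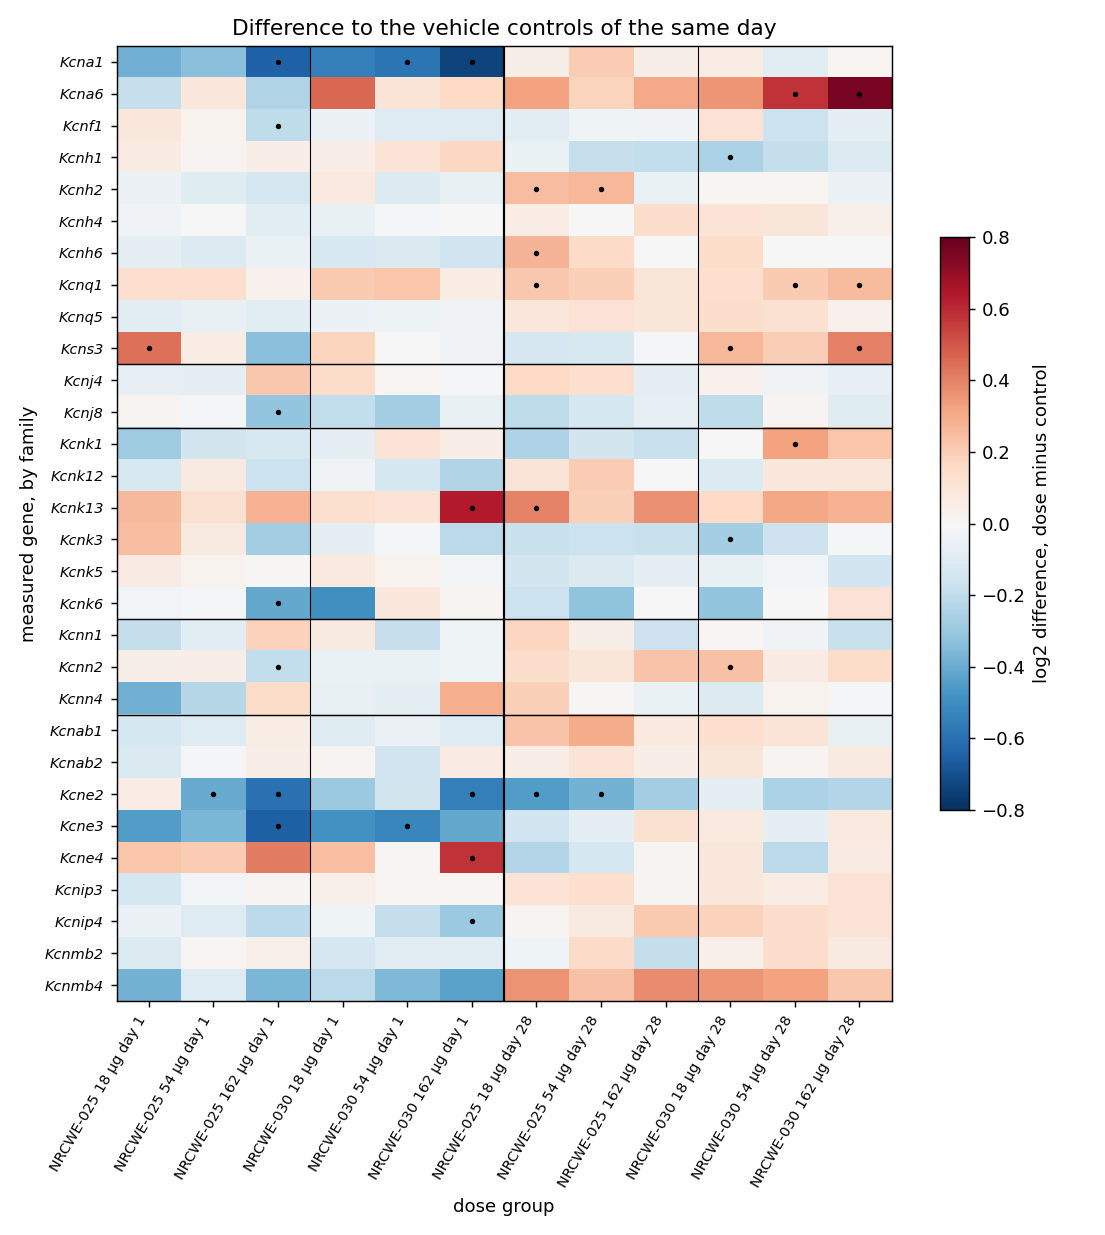
Log2 difference from the vehicle group of the same day (colour scale) for the 30 measured genes named in the text (vertical axis, grouped by family) in the 12 dose groups (horizontal axis), where a black dot marks an unadjusted limma p under 0.05. Differences lie between -0.74 (Kcna1, NRCWE-030 162 µg day 1) and 0.76 (Kcna6, NRCWE-030 162 µg day 28), and none passed adjustment over all genes.

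The 2 materials were then compared at equal doses in a fit of all 14 groups, as NRCWE-030 minus NRCWE-025. On day 1, 0 of 84 genes were called (limma; 4 unadjusted; background 0.155%), and on day 28 also 0 (5 unadjusted; background 0.241%). The unadjusted shares were 4.76% and 5.95%, and those of all genes 7.78% and 6.29%. Kcnk1, a two-pore channel of epithelia, had the smallest p on day 28, with differences of 0.25, 0.47 and 0.40 at 18, 54 and 162 µg (adjusted p = 0.298). At 162 µg its arrays read 2.27, 2.61, 2.04, 2.31 and 2.08 after NRCWE-030 and 1.86, 1.93, 1.61 and 2.03 after NRCWE-025, without overlap. Kcns3 was higher after NRCWE-030 by 0.40, 0.33 and 0.42 at the same doses (adjusted p = 0.525). Without NRCWE-030 18 µg day 28 replicate 5 the differences at 18 µg were 0.28 for Kcnk1 (adjusted p = 0.268) and 0.38 for Kcns3 (0.566). On day 1 Kcna6 was the measured gene with the smallest p, with differences of 0.65, 0.014 and 0.40 (adjusted p = 0.569).

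Whether the effect of 162 µg differed between the days was tested as the difference on day 1 minus that on day 28. For NRCWE-025, 0 of 84 genes were called (limma; 10 unadjusted; background 0.059%), and for NRCWE-030, 0 (6 unadjusted; background 0.198%). The unadjusted shares were 11.9% and 7.14%, and those of all genes 10.5% and 7.67%. For both materials 25 of 35 measured genes had a value below 0. Their medians were -0.087 and -0.095, against -0.0028 and 0.0017 for all measured genes. Kcnn2 had the smallest p of a measured gene for NRCWE-025, at -0.42 (SE 0.14, adjusted p = 0.217). With the slide as a fixed block it was called, at -0.43 (SE 0.11, adjusted p = 0.0396). The share of all genes called under that block is not given here. The value of Kcnn2 takes in a probe that was well above background on 0 arrays. Against vehicle that probe differed by -0.15 on day 1 and 0.15 on day 28, and the measured probe by -0.24 and 0.31. Kcne3 followed at -0.78 (SE 0.30, adjusted p = 0.322), and at -0.51 (adjusted p = 0.53) without vehicle replicate 2 of day 1. For NRCWE-030 Kcna1 was at -0.76 (SE 0.30, adjusted p = 0.466), or -0.47 (adjusted p = 0.738) without that vehicle array, and Kcnip4 at -0.40 (SE 0.16, adjusted p = 0.472).

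Vehicle lungs of day 28 were compared with those of day 1, and 0 of 84 genes were called (limma; 2 unadjusted; background 0.0375%). The unadjusted share was 2.38%, and that of all genes 8.51%. Kcnh1, a voltage-gated pore of the ether-a-go-go family, came closest. It read 0.51, 0.78, 0.27, 0.44 and 0.41 on day 28 and -0.03, 0.34, 0.29, 0.39 and 0.02 on day 1. The days overlapped through 1 array of day 28, and the difference was 0.28 (SE 0.10, adjusted p = 0.369). Kcnq5, a voltage-gated pore of smooth muscle and nerve, differed by -0.14 (SE 0.069, adjusted p = 0.575). The values of Kcnh1 and Kcnq5 each take in a probe that was not measured, seen on 2 and 0 arrays.

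Across all 14 groups at once, 5 of 84 genes were called for any difference (limma F test, 14 unadjusted), or 5.95%, where 8.34% of all genes were. Among them were Kcnj10 (adjusted p = 0.00483), Kcnh6 (0.0059) and Kcnip4 (0.00942). An unadjusted limma p under 0.05 was met by 16.7% of potassium channel genes and 21% of all genes. Measured genes made up 4 of the 5 called and 12 of the 14 unadjusted. Most of the 84 genes were dim, unlike all genes tested, so these shares are not like for like. An ordinary F test called 4. Without NRCWE-030 18 µg day 28 replicate 5 the count was again 5, against a background of 8.81%, and the adjusted p of these 3 genes was 0.00503, 0.00876 and 0.0114. The test says that some groups differ and not which. The group means by day were therefore set side by side.

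Kcnh6 and Kcnip4 split by day. Kcnh6, a voltage-gated pore of the ether-a-go-go related family, had group means from 0.17 to 0.33 in the 7 groups of day 1 and from 0.40 to 0.67 in those of day 28. Single arrays ran from -0.02 to 0.66 on day 1, median 0.23, and from 0.06 to 0.90 on day 28, median 0.50. The days therefore overlapped among arrays, though not among group means. The highest group was NRCWE-025 18 µg day 28, where the arrays read 0.67, 0.61, 0.65, 0.76 and 0.67, all above the vehicle arrays of that day at 0.33, 0.50, 0.31, 0.39 and 0.47. Vehicle itself differed little between days, by 0.072 (SE 0.11, adjusted p = 0.902). The vehicle group had the highest mean of day 1, and on day 28, at 0.40, it was among the lowest.

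Kcnip4 had group means from 0.20 to 0.50 on day 1 and from 0.51 to 0.72 on day 28, with array medians of 0.36 and 0.62. Vehicle had the highest mean of day 1 and the lowest of day 28, and the vehicle groups differed by 0.016 (SE 0.11, adjusted p = 0.986). The highest group was NRCWE-025 162 µg day 28, at 0.49, 0.90, 0.88 and 0.62. In the measured probe alone the means ran from 0.42 at NRCWE-030 162 µg day 1 to 1.48 at NRCWE-030 18 µg day 28 (1.53 without replicate 5), with vehicle at 0.96 on day 1 and 1.07 on day 28. In that probe NRCWE-025 18 µg had the highest mean of day 1, at 1.01, and the test over 14 groups gave an adjusted p of 0.000123 when each gene was taken from its measured probes.

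Kcnk12, a two-pore channel subunit that gives little current by itself, was the third gene whose group means split by day, and was picked after its values were seen. It lay between 0.48 and 0.79 on day 1 and between 0.86 and 1.17 on day 28. Its lowest group of day 28 was NRCWE-030 18 µg, whose mean was 0.98 without replicate 5. Its test over 14 groups had an adjusted p of 0.0903, or 0.0662 without that array, and so gave no call. In all, 3 of 35 measured genes, 8.57%, had every day 28 group above every day 1 group, where 1.64% of all 13701 measured genes did, and 0 had every day 28 group below, where 1.04% did. Without that array these were again 3 and 0 genes, against 1.77% and 1.1%. Only 1 of the 19 slides held arrays of both days, and only through that array, so for nearly all arrays the day and the slide cannot be told apart. Of the 11 scan days 7 held both. With the scan day as a block Kcnh6 was still called and Kcnip4 had an adjusted p of 0.0573, and with the slide as a random block these were 0.0269 and 0.0724. With the slide as a fixed block, where that array alone joins the days, neither was called (0.427 and 0.505). Nor was either with local backgrounds as given (0.177 and 0.0828), and Kcnip4 was not with the scanner log ratio (0.408). Markers of heart muscle and fat varied by day too. The array means of the 10 cardiac muscle genes had group medians of 0.35 to 1.67 on day 1 and 0.48 to 3.29 on day 28. In vehicle these medians were 0.62 and 2.30. For the 5 fat genes the group medians were 1.12 to 1.69 and 1.55 to 2.13. Their part in the split by day was not tested.

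Kcnj10, an inward rectifier best known from glia and kidney, had the smallest p of all though it was dim, with 14 arrays well above background. Of these, 4 were among the 5 arrays of NRCWE-030 162 µg day 28, 3 among the 4 of NRCWE-025 162 µg day 28, 3 among the 5 of NRCWE-030 54 µg day 28 and 2 in vehicle of day 28. At NRCWE-030 162 µg day 28 the arrays read 0.26, 1.04, 0.48, 0.30 and 0.96, and in the vehicle of that day 0.15, 0.16, 0.50, 0.45 and 0.21. These groups overlapped. In 6 of the 7 groups of day 1 and in the NRCWE-025 groups of 18 and 54 µg on day 28 no array was well above background, so that those means are bounds and no fold is given. Group means were 0.035 to 0.27 on day 1 and 0.12 to 0.61 on day 28.

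**Figure D4:**
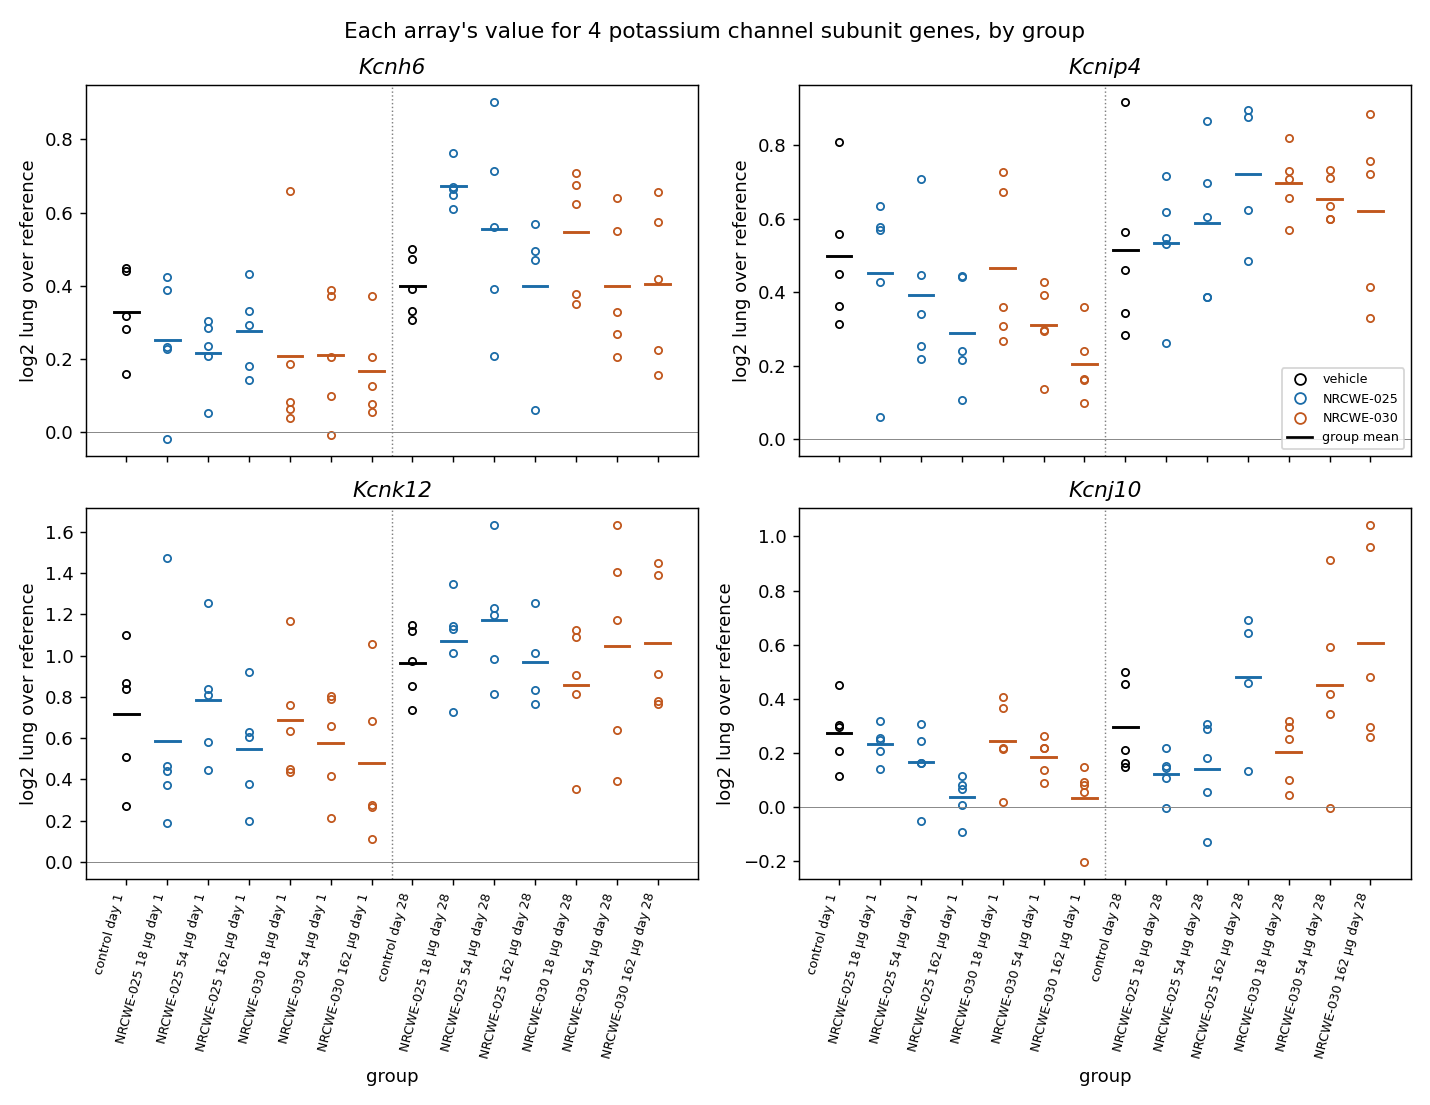
Log2 lung over reference (vertical axis) of Kcnh6, Kcnip4, Kcnk12 and Kcnj10 on every array, by group (horizontal axis), with one point per array and a bar at the group mean. The bars of Kcnh6, Kcnip4 and Kcnk12 are all higher in the day 28 groups than in the day 1 groups, while the points of the days overlap, and Kcnj10 reaches 1.04 at NRCWE-030 162 µg day 28.

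The start regions of the genes with the 3 smallest p-values are given because they are what a reader would search for shared control elements. The window is the 250 bases before a RefSeq start in the build GRCm38.p6, written 5′ to 3′ on the gene's strand, with GC boxes (GGGCGG or its reverse CCGCCC) in capitals. Kcnh6 lies on the plus strand at chr11:106007898-106008147 and its window holds 3 GC boxes. Kcnip4 has 2 starts on the minus strand, an upstream one at chr5:49285660-49285909 and a downstream one at chr5:48599683-48599932, without a GC box in either. Kcnj10 lies on the plus strand at chr1:172340960-172341209 and its window holds 2.
Kcnh6: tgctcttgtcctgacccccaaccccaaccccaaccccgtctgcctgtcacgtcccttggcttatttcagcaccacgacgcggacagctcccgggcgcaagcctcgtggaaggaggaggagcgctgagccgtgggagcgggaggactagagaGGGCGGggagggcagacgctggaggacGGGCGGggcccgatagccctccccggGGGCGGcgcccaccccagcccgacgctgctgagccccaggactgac
Kcnip4 upstream start: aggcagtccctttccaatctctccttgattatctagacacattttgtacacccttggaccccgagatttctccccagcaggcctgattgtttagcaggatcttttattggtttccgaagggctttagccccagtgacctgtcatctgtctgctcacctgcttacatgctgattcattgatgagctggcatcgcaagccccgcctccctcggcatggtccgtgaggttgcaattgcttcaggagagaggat
Kcnip4 downstream start: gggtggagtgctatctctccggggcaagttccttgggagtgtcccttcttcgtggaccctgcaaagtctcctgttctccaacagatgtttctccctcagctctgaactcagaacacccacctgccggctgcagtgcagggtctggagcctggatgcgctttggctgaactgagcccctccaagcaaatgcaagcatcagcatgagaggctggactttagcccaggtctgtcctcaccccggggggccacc
Kcnj10: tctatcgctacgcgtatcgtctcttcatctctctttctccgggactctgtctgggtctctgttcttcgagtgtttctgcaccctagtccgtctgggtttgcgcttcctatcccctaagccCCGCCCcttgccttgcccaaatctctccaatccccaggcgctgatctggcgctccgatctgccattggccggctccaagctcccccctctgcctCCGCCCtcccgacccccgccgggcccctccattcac
No motif searched was in all 4 windows. The CCAAT box (CCAAT or ATTGG) was in the upstream Kcnip4 window and the Kcnj10 window, 2 times each, and the TATA box (TATAAA or TTTATA) in none. Both strands were searched, and a GC box and a CCAAT box can overlap at their ends. Over the 92 starts listed for 67 potassium channel genes, 44.57% of windows held a GC box, 29.35% a CCAAT box and 3.261% a TATA box. Over all 32851 starts these shares were 32.74%, 33.85% and 12.37%. A match is only a run of letters and marks no binding.

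Channels with a known place in lung, airway, vessel or immune cells were listed apart, 24 genes in all. Of these 14 were measured, among them Kcnk3, Kcnk5, Kcnk6, Kcnk13, Kcnn4, Kcnj8, Kcnmb2, Kcnmb4, Kcnq1, Kcne2, Kcne3, Kcne4 and Kcnq5. The other 10 were dim, among them Kcna3 of T cells (5 arrays), Kcna5 of pulmonary artery muscle (12 arrays), Kcnj2 (9 arrays) and Kcnmb1 of smooth muscle (19 arrays). Since no gene was called, the 95% intervals of the differences say how large a change in the array ratio these data would still allow. Each interval was made for 1 gene at a time, without allowance for the 35 genes. It bounds the ratio after background correction with an offset of 50, and not the change in RNA itself. At 162 µg on day 1 the interval lay within 2-fold either way for 33 of the 35 measured genes after NRCWE-025 and for 31 after NRCWE-030, and on day 28 for 35 and 34. The median half-width of an interval was 0.26, 0.32, 0.26 and 0.22 in these 4 comparisons. For 10 of the 35 genes the value takes in a probe that was not measured, so these bounds do not hold for the measured probe alone. The difference of Kcnip4 at 162 µg of NRCWE-030 on day 1, for instance, was -0.29 for the gene and -0.54 in its measured probe. The intervals that reached beyond 2-fold were those of Kcna1, down to -1.13 after NRCWE-025 and -1.29 after NRCWE-030 on day 1, of Kcne3, down to -1.11 after NRCWE-025 on day 1, of Kcne2, Kcne4 and Kcnk13, to -1.05, 1.01 and 1.18 after NRCWE-030 on day 1, and of Kcna6, to 1.19 after NRCWE-030 on day 28. A missed threshold does not show that a gene was unaffected.

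**Figure D5:**
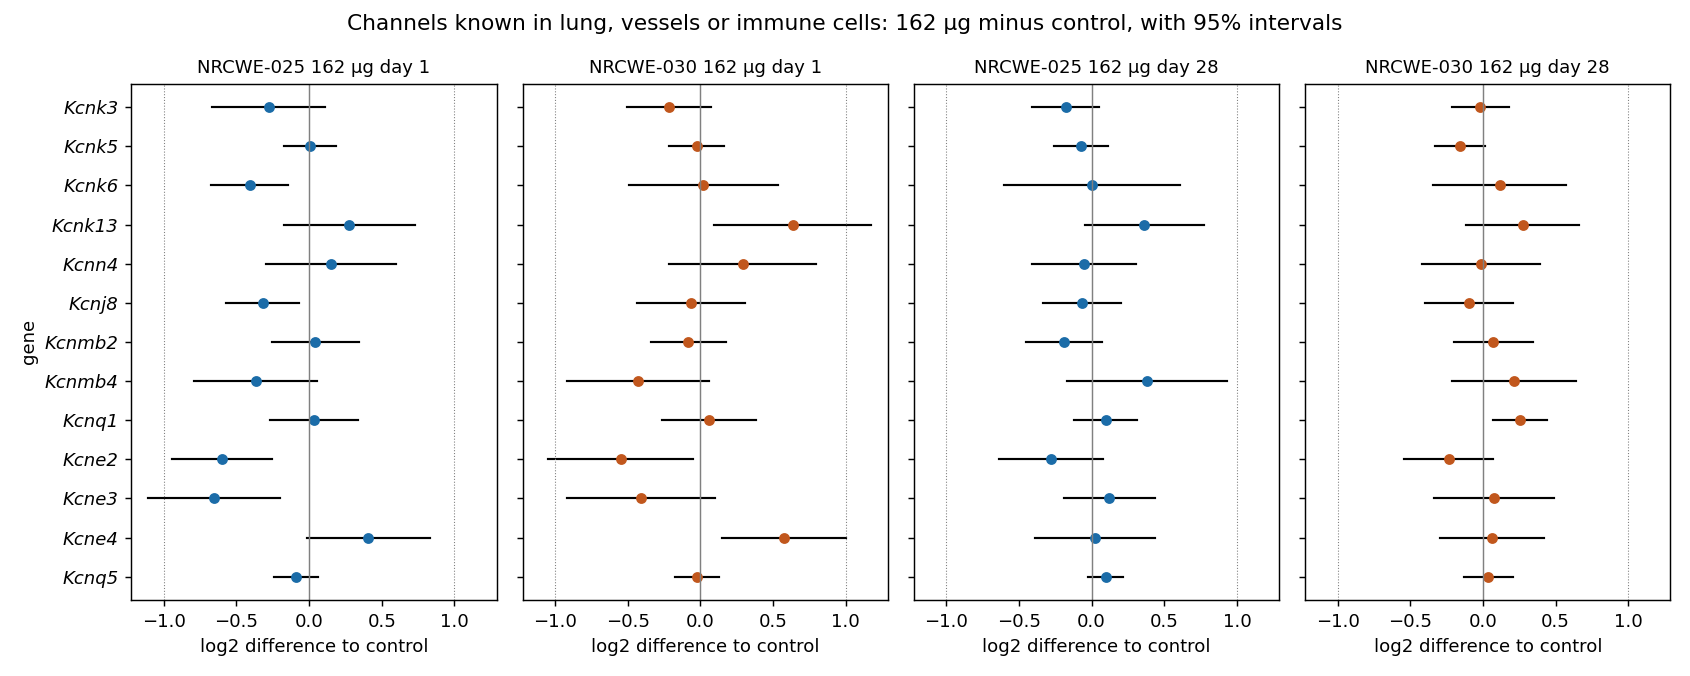
Log2 difference from vehicle (horizontal axis) with its 95% limma interval for 13 measured genes of the lung, vessel and immune list (vertical axis) at 162 µg of each material on each day, with dotted lines at a 2-fold change. Kcne3 after NRCWE-025 on day 1 and Kcne2, Kcne4 and Kcnk13 after NRCWE-030 on day 1 reach beyond a line, and the other intervals stay within both.

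Genes of potassium handling outside the channel family gave 1 call in the dose comparisons. The list held 28 genes, chiefly sodium pump subunits, potassium-chloride cotransporters and partners of channel pores, of which 25 were tested and 21 measured. Slc12a4, the potassium-chloride cotransporter that lets swollen cells lose volume, was called at 162 µg of NRCWE-030 on day 1. That was 1 of the 25 genes, where 1.69% of all genes were called at that dose. Nothing about the list is read from it. The mean of Slc12a4 there was 0.13 ± 0.076 against -0.50 ± 0.33 in vehicle (SD, n = 5 each), a difference of 0.63 (SE 0.15, limma adjusted p = 0.0317), and it was -0.052 ± 0.16 at 54 µg. The median difference of the 25 genes at that dose was -0.054, with 11 higher.

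For any difference among 14 groups 4 of the 25 were called, where 8.34% of all genes were, among them Abcc9 (adjusted p = 0.0407), Slc12a2 (0.0436) and Slc12a4 (0.0282). Abcc9 is the sulfonylurea receptor that assembles with the Kcnj8 pore, and its means ran from 0.14 at NRCWE-025 162 µg day 1 to 0.46 at NRCWE-025 162 µg day 28, with vehicle at 0.23 and 0.44. Kcnj8 itself was not called in that test. Slc12a2, the cotransporter that loads epithelial cells with sodium, potassium and chloride, had its lowest mean in vehicle of day 1, at 0.17, and its highest at NRCWE-030 18 µg day 28, at 0.82. Without replicate 5 that mean was 0.75, and NRCWE-025 54 µg day 28 was then highest, at 0.77.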

How the data were processed

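Lung RNA of 69 mice was measured on two-colour Agilent whole mouse genome arrays. The authors read the scans with Agilent Feature Extraction 11.0.1.1 (per the file headers) and deposited median foreground and background intensity values for each dye, a log10 ratio that the scanner software makes, flags, and a log2 ratio table of the whole series. Per the study's methods that table was LOWESS-normalised. Its columns correlated at 0.996 (median) with a loess without background correction, at 0.922 for NRCWE-030 18 µg day 28 replicate 5 and at 0.995 or more for the others.

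Here the intensities were corrected with normexp (offset 50), after local backgrounds marked as outliers by the scanner software had each been set to the median of the unmarked ones on that array, since as given they drove the fitted mean background as low as -1152.54 in Cy3, and normalised by loess within arrays in limma 3.58.1 (R 4.3.3). Control spots and marked spots (48 to 212 an array) had no weight. Of 41174 probes, 27479 matched a RefSeq symbol by accession (66.7%). Spots of a probe and probes of a gene were summarised by the median, and 93 genes with a missing value were left out, which left 18656. Of the measured potassium channel genes 13 have more than 1 probe, and in 10 of these a probe is not measured. No spot was saturated, and the number of arrays, 4 or 5 a group, limits the precision. Each array is 1 mouse.

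Per material and day, limma fitted vehicle and 3 doses. A fit of all 14 groups gave the material, day, vehicle and any-difference tests. The tests were also run on simulated data. Named genes were the called ones, the 5 measured genes with the smallest dose p in each fit, the 3 with the smallest p in the other comparisons, the 5 highest and lowest in vehicle, and a list of 24 lung, vessel and immune channels. Kcnk12 lies outside the rule. Some genes that met it are not reported here, though counts over genes include them. The genes and lists were chosen with earlier results of these data known. Alternatives concerned background, normalisation, probes, flags, the filter on dim genes, slide and scan day as blocks, the ordinary test and leaving out each array. The array's design names an older build, so RefSeq (GRCm38.p6) served for names and start sequences only.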

Additional observations from a re-analysis of the deposited data

Results flagged for a closer look

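In 6 of 140 groups of arrays tested, over 10 named genes, 1 array stood far from the others of its group by Dixon's criterion, which chance meets in about 1 group in 20. For Kcna1 these were replicate 2 of vehicle day 1, at 2.29 against 0.68 to 1.05 in the others, and replicate 5 of NRCWE-025 162 µg day 1, at 0.30 against 0.51 to 0.57. Kcnh6 was at 0.66 in replicate 3 of NRCWE-030 18 µg day 1, against 0.04 to 0.19. Kcnh1 was at 0.61 in replicate 4 of NRCWE-030 162 µg day 1, against 0.28 to 0.33, and Kcnn2 at 0.54 in replicate 1 of vehicle day 28, against 0.30 to 0.35. The dim Kcnj10 was at -0.20 in replicate 5 of NRCWE-030 162 µg day 1, against 0.06 to 0.15.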

How the results depend on the processing

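The counts of 0 called genes in the 21 specific comparisons stayed at 0 under every alternative and with any array left out, except with the slide as a fixed block. That block gave 1 call for the difference between days after NRCWE-025 162 µg (Kcnn2, -0.43, adjusted p = 0.0396) and 4 for vehicle day 28 against day 1 (Kcnj4, Kcnj16, Kcnk6 and Kcnmb4). The second rests on the 1 slide that held both days, through NRCWE-030 18 µg day 28 replicate 5 alone, whose scanner values and deposited column differ. Without that array the slide block, chosen after seeing the data, again gave 1 call for the first (Kcnn2) and could not give the second. The share of all genes called under the slide block is not given here, so nothing about these channels is read from its calls. The count of 5 for any difference among 14 groups was 1 with local backgrounds as given (Kcnj10), 3 with measured probes only (Kcnh6, Kcnip4 and Kcnj10) and 4 to 7 otherwise. It was 4 to 8 with 1 array left out, and 8 without replicate 2, 3 or 4 of NRCWE-030 18 µg day 1 or replicate 4 of NRCWE-030 162 µg day 1. Kcnj10 was called in every setting that tested it. Kcnh6 lost its call with backgrounds as given and the slide as a fixed block, and Kcnip4 with these, the slide as a random block, the scan day and the scanner log ratio. The cause of these changes was not tested. Measured genes numbered 75 when 1 array sufficed and 20 when all arrays were required. No paired analysis was possible because the labels give no replicate numbers that tie arrays across groups; the numbers here follow the order of deposit. Arrays of a slide or scan day were compared through the blocks above. Signal over background is a limit too, with 49 of 84 genes dim.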
